A study of Mus musculus with 2 samples.

Results

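The genes described here are the 10 classical MAP kinase phosphatases of the mouse, Dusp1, Dusp2, Dusp4, Dusp5, Dusp6, Dusp7, Dusp8, Dusp9, Dusp10 and Dusp16, which were taken as a family because of their place in the Ras-MAP kinase pathway. For each gene, all regions called for the transcription factors Etv4 and Etv5 that lay inside the gene or within 50 kb of it were collected from the 2 deposited lists. All 10 genes were found among the 21938 protein-coding genes of the annotation, and 33 of 13636 Etv4 regions and 25 of 8297 Etv5 regions met this rule.

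The regions come from ChIP-seq, in which DNA fragments bound to a protein are recovered with an antibody and sequenced. EpRas cells are EpH4 mouse mammary gland epithelial cells that carry an oncogenic H-Ras, and both libraries were prepared from this line after treatment with 1 ng/ml TGF-β3 for 1.5 h in medium with 4% serum. There was 1 library per antibody, a rabbit polyclonal antibody for Etv4 and a mouse monoclonal one for Etv5, so the antibody and the factor cannot be told apart, no difference between the lists was tested, and no level in untreated cells is given. Regions were called without an input library, and no data on expression or cell type markers were analysed here.

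MAP kinase phosphatases, encoded by Dusp genes, remove phosphate from both the threonine and the tyrosine in the activation loop of MAP kinases and so switch the kinases off. Many of them are transcribed in response to the same kinases, which makes them negative feedback regulators of Ras, ERK, JNK and p38 signalling. Etv4 and Etv5 are ETS-family transcription factors of the PEA3 group, which bind a GGAA core and act downstream of receptor tyrosine kinases and ERK. AP-1, a dimer of Jun and Fos proteins, is another target of these kinases and often binds near ETS factors.

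The promoters of 4 genes whose start and promoter lay under a region are shown first, since these are the sites nearest to transcription. They are given 5′ to 3′ on the strand of the gene from the RefSeq promoter table for GRCm38.p6 (mm10), without bases in exons of protein-coding genes. Capitals mark the core GGAA with A or C before it and A or G after it on either strand, a hexamer called the loose ETS pattern here, the cAMP response element TGACGTCA, and CArG boxes, the sites of serum response factor. The cAMP response element and the CArG box were looked for after the sequences had been seen.

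Dusp5, chr19:53528895-53529108, plus strand, under a region of both lists: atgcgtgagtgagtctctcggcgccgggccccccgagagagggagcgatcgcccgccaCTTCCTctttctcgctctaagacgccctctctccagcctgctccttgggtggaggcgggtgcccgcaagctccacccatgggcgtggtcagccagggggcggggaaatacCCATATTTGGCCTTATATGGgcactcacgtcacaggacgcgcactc

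Dusp6, chr10:99262981-99263230, plus strand, under an Etv4 region and in part under an Etv5 region: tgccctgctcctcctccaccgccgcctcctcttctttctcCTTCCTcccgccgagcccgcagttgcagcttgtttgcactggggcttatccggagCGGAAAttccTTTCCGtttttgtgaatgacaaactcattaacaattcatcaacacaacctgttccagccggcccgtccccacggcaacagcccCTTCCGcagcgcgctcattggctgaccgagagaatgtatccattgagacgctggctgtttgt

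Dusp10, chr1:184034302-184034380, plus strand, under a region of both lists: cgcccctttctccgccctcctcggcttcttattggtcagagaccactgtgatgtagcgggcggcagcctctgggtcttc

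Dusp1, chr17:26508520-26508722, minus strand, under an Etv4 region only: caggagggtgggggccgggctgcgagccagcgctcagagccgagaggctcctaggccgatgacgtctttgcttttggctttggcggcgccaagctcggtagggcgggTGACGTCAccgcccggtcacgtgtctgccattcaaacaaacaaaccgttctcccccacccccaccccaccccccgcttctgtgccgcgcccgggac

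The 214 bases of Dusp5 held 1 loose ETS hexamer and a tandem pair of CArG boxes, the 250 bases of Dusp6 held 4 loose ETS hexamers and neither of the other elements, the 203 bases of Dusp1 held 1 cAMP response element, and the 79 bases of Dusp10 held none of them. Of 32851 promoters of the same table, each with 250 bases before and 50 after the start, 64.7% held a loose ETS hexamer, 1.79% the cAMP response element and 1.63% a CArG box. Of the 8 member promoters in the table, 6 held a loose ETS hexamer, 2 (Dusp1 and Dusp8) the cAMP response element and 1 (Dusp5) CArG boxes. Dusp4 and Dusp9 had no entry, and the entry of Dusp8 lay outside the Etv4 region over the start of that gene, so its promoter is not shown. A match is a description of the letters and not a measured site.

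Further from the starts, the longer octamer CAGGAAGT or CCGGAAGT, called the ETS pattern, occurred at 5 distinct places in the member regions, all as CAGGAAGT. They are shown because they are the only places in the regions of these genes that hold this octamer. Each is given in 60 bases of the plus strand of mm10 with ETS and AP-1 patterns in capitals. The place at Dusp1 lies inside the neighbouring gene Ergic1, in a region centred 10.3 kb from the start of Ergic1. It is counted only through a long Dusp1 transcript described below.

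Dusp1, 75.9 kb upstream, chr17:26584332-26584391: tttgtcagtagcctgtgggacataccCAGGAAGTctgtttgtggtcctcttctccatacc

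Dusp5, 26.1 kb downstream of the start, chr19:53555192-53555251: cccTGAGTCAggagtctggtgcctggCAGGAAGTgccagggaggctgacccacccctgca

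Dusp5, 28.4 kb downstream of the start, chr19:53557446-53557505: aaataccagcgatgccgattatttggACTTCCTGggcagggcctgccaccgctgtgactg

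Dusp6, 20.9 kb upstream, chr10:99242258-99242317: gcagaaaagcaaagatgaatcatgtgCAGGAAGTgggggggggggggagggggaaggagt

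Dusp7, 8.96 kb downstream of the start, chr9:106377568-106377627: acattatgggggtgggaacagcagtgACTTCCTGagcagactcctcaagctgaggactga

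The AP-1 pattern, TGANTCA in which N is C or G and which reads the same way on the opposite strand with the other of these letters, occurred at 19 distinct places. In 4 of the genes 59 bases around the match nearest to the middle of an Etv4 region that also overlapped an Etv5 region are shown, again on the plus strand with the pattern in capitals.

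Dusp1, 41.2 kb upstream, chr17:26549598-26549656: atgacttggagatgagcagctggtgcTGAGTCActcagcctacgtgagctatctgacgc

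Dusp6, 45.8 kb downstream of the start, chr10:99309046-99309104: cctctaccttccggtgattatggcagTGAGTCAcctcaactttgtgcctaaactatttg

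Dusp7, 7.29 kb upstream, chr9:106361317-106361375: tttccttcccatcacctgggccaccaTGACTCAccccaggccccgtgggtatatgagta

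Dusp10, 42.5 kb downstream of the start, chr1:184076849-184076907: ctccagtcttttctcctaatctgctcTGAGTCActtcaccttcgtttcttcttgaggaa

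The matches at Dusp1 and Dusp6 lay 1 and 2 bases from the midpoint of their Etv4 regions, those at Dusp10 and Dusp7 12 and 72 bases from it. At the Dusp5 region 26 kb downstream, an AP-1 pattern and an ETS pattern stood 16 bases apart, and both appear in the sequence printed above for that site.

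Regions of both lists were found at the same 7 of the 10 genes, Dusp1, Dusp4, Dusp5, Dusp6, Dusp7, Dusp8 and Dusp10. For comparison, 53.4% of all protein-coding genes had at least 1 Etv4 region and 42.7% at least 1 Etv5 region by the same rule. The exact 95% interval of 7 of 10 genes, 34.8 to 93.3%, includes both shares. Dusp2, Dusp9 and Dusp16 had none. Their nearest regions lay 65.5, 72.1 and 73.1 kb away (Etv4) and 65.7, 72.3 and 99.7 kb away (Etv5). With the gene alone, 6 members had an Etv4 region (26.2 to 87.8%), compared with 23% of all genes. For Etv5 it was 5 (18.7 to 81.3%), compared with 14.7%. Both of these intervals lie above the share of all genes, so the comparison depends on the distance, and it was not tested.

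The number of regions varied widely among the 7 genes that had any. All protein-coding genes together, those without a region included, had a mean of 1.48 Etv4 and 0.840 Etv5 regions, with a 95th percentile of 6 and 3, and the genes with at least 1 region had a mean of 2.77 and 1.97. Dusp5 had 6 Etv4 and 5 Etv5 regions, counts that 6.09% and 2.53% of genes reached or passed. Dusp10 had 6 and 4, Dusp6 had 4 and 4, and Dusp7 had 4 and 5, the only member with more Etv5 than Etv4 regions. These counts stood at or above the 90th percentile of all genes, which was 4 for Etv4 and 2 for Etv5. Dusp8 had 2 in each list, below the Etv4 mean of genes with a region, and Dusp4 had 4 Etv4 regions but only 1 Etv5 region, a count that 42.7% of genes reached or passed.

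Dusp1 had the highest Etv4 count, with 7 regions, and 4 Etv5 regions, but this count rests on the annotation. The GENCODE gene spans 56.5 kb because 1 of its transcripts starts 53.7 kb upstream of the RefSeq start, whereas the RefSeq gene is 2.88 kb long. With the RefSeq gene, Dusp1 had 4 Etv4 and 1 Etv5 regions, and the counts of the other 9 genes were the same. Distances below are measured from the RefSeq start at Dusp1, Dusp10 and Dusp16, where both starts lie over 1 kb apart, and from the GENCODE start elsewhere.

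**Figure D1:**
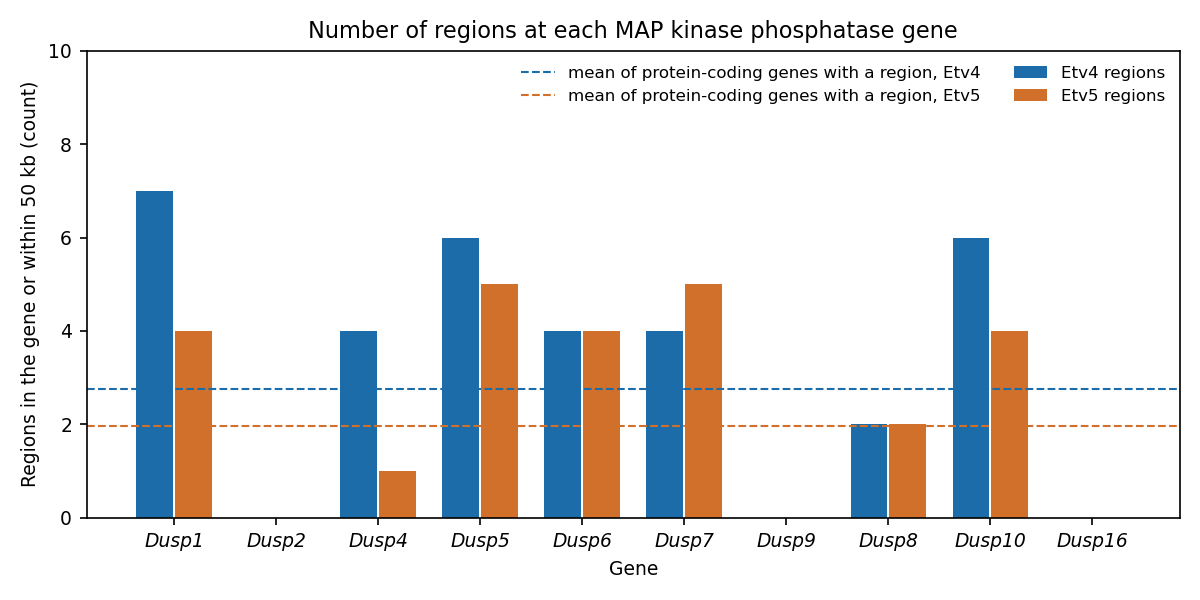
Number of regions of each list (y axis, count) inside each member gene or within 50 kb of it (x axis), as bars from 0, with dashed lines at the mean over the protein-coding genes with at least 1 region of that list (2.77 for Etv4 and 1.97 for Etv5). With 1 library per list there is no error bar. Dusp2, Dusp9 and Dusp16 have no bar, the Etv4 bar of Dusp8 and the Etv5 bar of Dusp4 stand below the line of their list, and the Etv5 bar of Dusp8 stands level with it.

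Regions at the gene start were found at part of the family. By the distance of a region's midpoint from the outermost start of the gene, 4 members had an Etv4 region within 2 kb (Dusp4, Dusp5, Dusp6 and Dusp8), compared with 15.4% of all protein-coding genes. In the Etv5 list there were 3 (Dusp5, Dusp6 and Dusp7), compared with 8.73%. Dusp5 and Dusp6 were the 2 members whose Etv4 region near the start overlapped an Etv5 region, which held for 4.53% of genes. Counting the start of any transcript, 6 members had an Etv4 region within 2 kb (Dusp1 and Dusp10 in addition), compared with 17.9% of genes. By this count 4 had an Etv5 region (Dusp10 in addition), compared with 10.6% of genes. These counts out of 10 genes are small, and their differences from the shares of all genes were not tested.

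Among the nuclear, inducible phosphatases, Dusp1, which acts on p38, JNK and ERK and is an immediate early gene, had 2 Etv4 regions at its start. The first, from 26508093 to 26508724 on chromosome 17 (632 bp), spanned the start, and the second, from 26508784 to 26509364, was centred 0.602 kb upstream. No Etv5 region was listed there, and the nearest one lay 40.4 kb from the first of these regions. Another Etv4 region was centred 6.43 kb upstream and held 2 AP-1 patterns. Both lists met at 41.2 kb upstream, where an Etv4 region of 405 bp and an Etv5 region of 677 bp shared 362 bp around the AP-1 pattern printed above, 11.9 kb from the start of the neighbouring gene Ergic1. The other 3 regions of each list, from 76.1 to 103 kb upstream of the RefSeq start, lay inside Ergic1, to whose start they are nearer, and they are counted only with the long transcript.

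Dusp4, an inducible nuclear phosphatase of ERK and JNK, was the member at which the lists met nowhere. Its Etv4 regions were centred 1.00 kb upstream, over the start (34806909 to 34807666 on chromosome 8, 758 bp), 1.77 kb into the gene and 8.10 kb into the gene, the last in an intron with 1 AP-1 pattern. Its only Etv5 region, 365 bp long, lay in intergenic sequence 42.0 kb upstream. Dusp4 thus had Etv4 regions upstream of, over and downstream of its start and no Etv5 region closer than 41.9 kb to the gene.

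Dusp5, a nuclear phosphatase that is specific for ERK, had regions of both lists over its start, of 836 bp for Etv4 and 598 bp for Etv5, with 582 bp in common. The start also lies within an antisense non-coding gene, AC137853.2, so the region cannot be assigned to one of these genes. A second shared pair lay in the first part of the gene, centred 2.79 kb (Etv4) and 2.43 kb (Etv5) from the start, and an Etv4 region without an Etv5 partner at 1.41 kb. Downstream of the gene stood a cluster of 3 Etv4 and 3 Etv5 regions between 23.7 and 28.3 kb from the start. It included the longest member region of each list, 1394 bp for Etv4 (53554354 to 53555747 on chromosome 19) and 1303 bp for Etv5, the latter lying wholly within the former. In all of these intergenic regions the start of Dusp5 was the nearest start of a protein-coding gene.

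Among the cytoplasmic phosphatases that prefer ERK, Dusp6, the standard feedback target of FGF and ERK signalling, had all of its regions in overlapping pairs. An Etv4 region of 1314 bp (99262464 to 99263777 on chromosome 10) and an Etv5 region of 385 bp spanned the start, and a second pair was centred 1.36 kb (Etv4) and 1.42 kb (Etv5) upstream. The 2 distant pairs lay 21.0 kb upstream in an intron of Gm34777, with the ETS pattern printed above, and 45.8 kb downstream of the start in an intron of B530045E10Rik, with an AP-1 pattern. For both distant pairs Dusp6 had the nearest protein-coding start.

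Dusp7, a phosphatase of ERK in the cytoplasm, had at its start the converse of the arrangement at Dusp1, Dusp4 and Dusp8. An Etv5 region of 588 bp (106367753 to 106368340 on chromosome 9) was centred 0.586 kb upstream, and the nearest Etv4 region lay 6.24 kb from it. Its 4 Etv4 regions all overlapped an Etv5 region, at 7.36 kb upstream and at 9.42, 43.9 and 44.5 kb downstream of the start. The last 2 are nearer to the start of Rpl29, at 16.9 and 16.3 kb. Dusp9, also of this class, had no region in either list.

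Among the phosphatases of JNK and p38, Dusp8 had an Etv4 region of 319 bp over its start (142095578 to 142095896 on chromosome 7), without an Etv5 region. In an intron 10.95 kb into the gene the lists met again, where an Etv4 region of 481 bp lay wholly within an Etv5 region of 551 bp, with midpoints 2 bases apart, and a second Etv5 region stood alone at 11.7 kb. Dusp10, which acts on JNK and p38 in the nucleus and the cytoplasm, had a pair over its RefSeq start, of 548 bp for Etv4 and 598 bp for Etv5 with 397 bp in common, which also stands at the start of the gene 1700056E22Rik on the opposite strand, annotated as protein-coding, to which the midpoint of the Etv4 region was nearer. A further 3 Etv4 regions lay in introns of Dusp10 at 17.6, 23.1 and 36.1 kb, of which that at 23.1 kb overlapped an Etv5 region. Just past the end of the gene, 42.5 kb from the start, an Etv4 region of 853 bp overlapped 2 Etv5 regions, by 59 and 595 bp, and an Etv4 region at 50.8 kb stood alone. Dusp16, the other member of this class, had none, with either the GENCODE or the RefSeq extent.

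**Figure D2:**
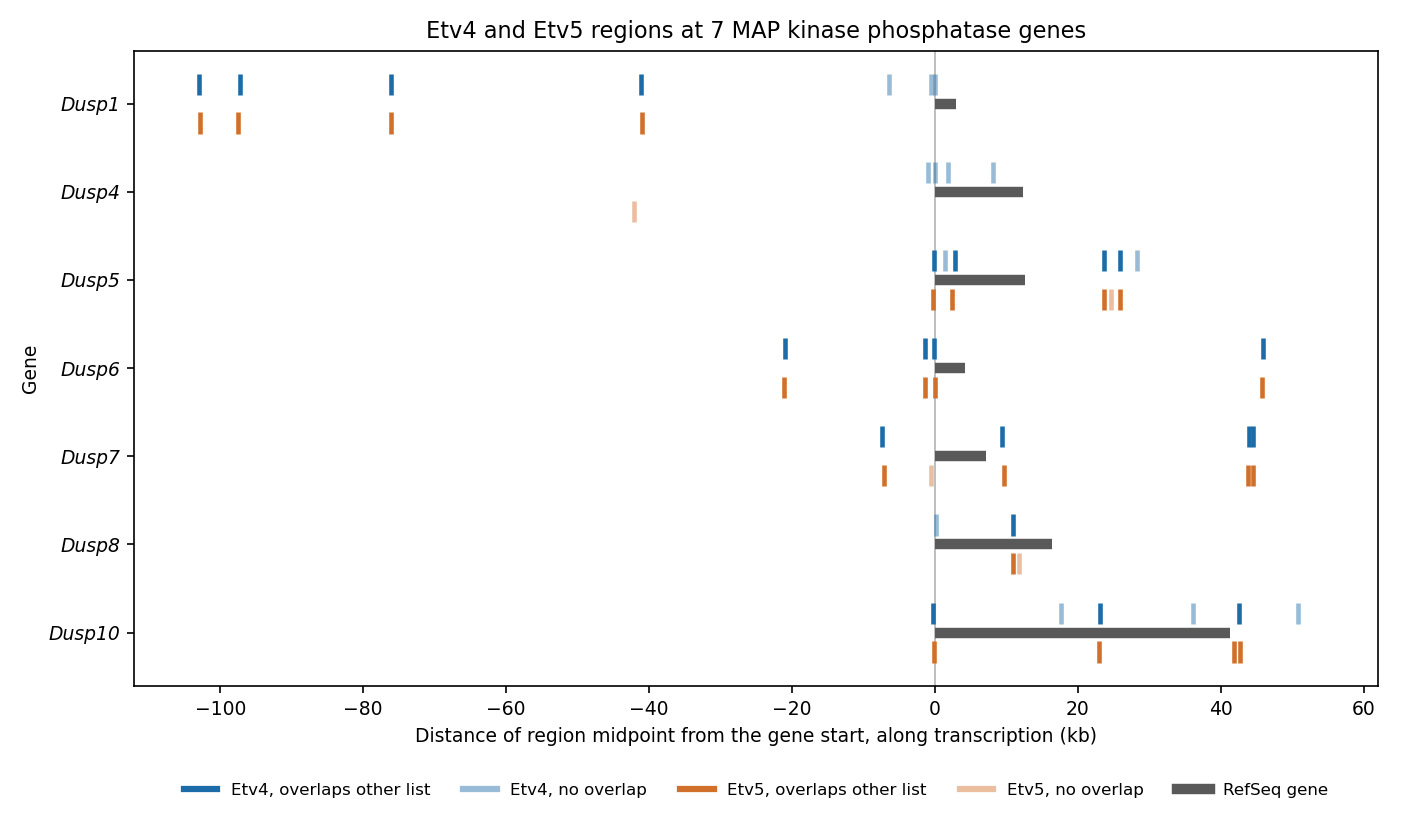
Midpoints of the regions (x axis, kb from the gene start along the direction of transcription, 0 at the start) at the 7 member genes with a region, one row per gene; blue ticks above the line are Etv4, orange ticks below it Etv5, dark ticks overlap the other list, pale ticks do not, and the grey bar is the RefSeq gene drawn to scale. Ticks have a fixed width and show no length; Dusp6 has only dark ticks, Dusp4 only pale ones, and the 3 leftmost Etv4 ticks of Dusp1 stand 76.1 to 103 kb upstream.

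By class, the nuclear phosphatases had 17 Etv4 and 10 Etv5 regions, of which 8 and 8 overlapped the other list, and with the RefSeq genes, which leave out the regions in Ergic1, 14 and 7, of which 5 and 5 overlapped. The cytoplasmic ones had 8 Etv4 regions, all of which overlapped, and 9 Etv5 regions, of which 8 did. Those of JNK and p38 had 8 and 6, of which 4 and 5 overlapped. In the whole lists, 37.8% of Etv4 and 63.2% of Etv5 regions overlapped the other list. The classes hold 4, 3 and 3 genes, so single genes set these values, Dusp4 with no overlapping region of 4 among the nuclear ones and Dusp6 and Dusp7 with 4 of 4 each among the cytoplasmic ones.

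Over the family, 6 of the 10 members had an Etv4 region that overlapped an Etv5 region, all with regions other than Dusp4. The exact 95% interval of this share, 26.2 to 87.8%, includes the 29.5% of all protein-coding genes with such a region. Of the Etv4 regions, 20 of 33 had 1 bp or more in common with an Etv5 region (60.6%, exact Clopper-Pearson 95% interval 42.1 to 77.1%), compared with 37.8% of the whole Etv4 list. Of the Etv5 regions, 21 of 25 overlapped an Etv4 region (84.0%, 63.9 to 95.5%), compared with 63.2% of the whole list. With the RefSeq genes, which leave out the 3 pairs in Ergic1, these shares were 17 of 30 (56.7%, 37.4 to 74.5%) and 18 of 22 (81.8%, 59.7 to 94.8%), and the intervals then included the shares of the whole lists. The intervals cover counting error only and treat neighbouring regions as independent, which they are not, and no replicate was available to test the difference. In the 21 pairs the overlap ran from 59 to 1303 bp with a median of 481 bp, and in 18 pairs the midpoints lay within 250 bp of each other.

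Each region carries a number from 1 to the length of its list, whose criterion is not given in the sources used here, and overlap was more frequent at low numbers in both whole lists. Among Etv4 regions in the first 50% of the numbers, 13 of 20 member regions overlapped (65%, 40.8 to 84.6%), compared with 54.7% of the list, and in the second 50% it was 7 of 13 (53.8%, 25.1 to 80.8%), compared with 20.8%. Among Etv5 regions it was 14 of 16 (87.5%, 61.7 to 98.4%, list 80.1%) and 7 of 9 (77.8%, 39.99 to 97.2%, list 46.2%). With the RefSeq genes these counts were 11 of 18 and 6 of 12 for Etv4 and 13 of 15 and 5 of 7 for Etv5.

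Member regions were spread over most of the numbering. Expressed as a percent of the list length, the numbers ran from 4.30 to 95.1 with a median of 34.3 for Etv4 and from 13.2 to 86.9 with a median of 33.9 for Etv5. The 3 Etv4 regions with a number below 10% of the list were the long region downstream of Dusp5 (4.30), the region in Ergic1 76.1 kb upstream of Dusp1 (5.56) and that past the end of Dusp10 (8.07). No Etv5 region had so low a number. Overlapping Etv4 regions had a median length of 845.5 bp and a median number of 28.6% of the list, and the others 590 bp and 49.4%. Paired regions could also be far apart in number: the Etv4 region 41.2 kb upstream of Dusp1 stood at 80.4% of its list and its Etv5 partner at 13.8%, while the pair over the start of Dusp6 stood at 16.3% (Etv4) and 77.0% (Etv5).

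**Figure D3:**
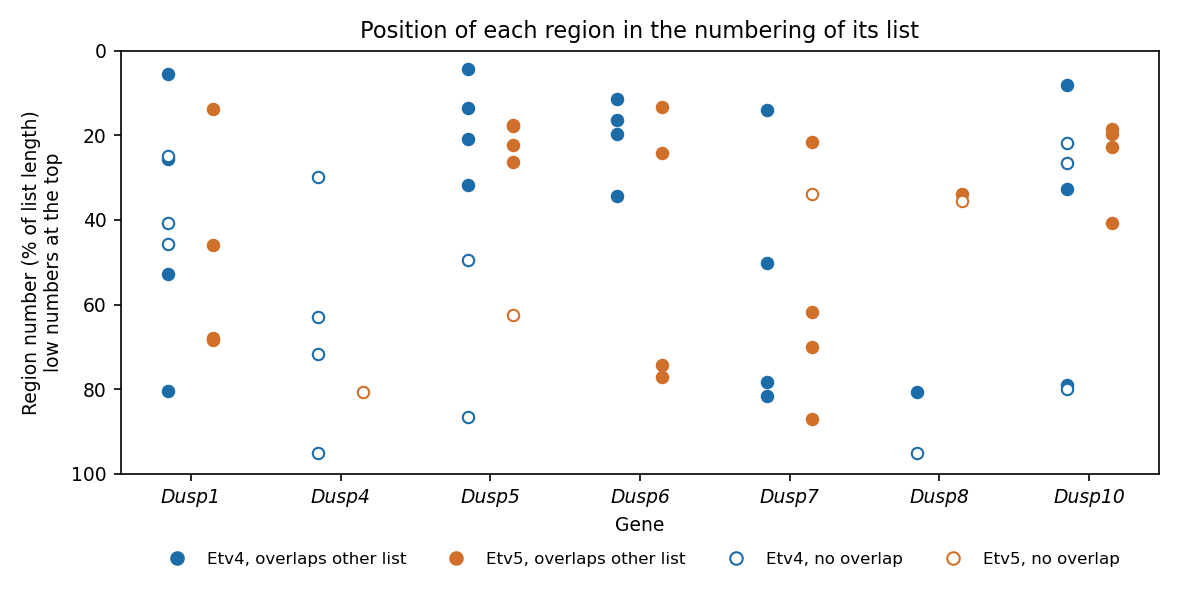
Region number as a percent of the length of its list (y axis, low numbers at the top) for each region at the 7 genes (x axis); each circle is 1 region, blue for Etv4 and orange for Etv5, filled where it overlaps the other list and open where it does not. The circles run from 4.30 to 95.1 for Etv4 and from 13.2 to 86.9 for Etv5, and the regions of Dusp4 are all open.

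In their position, 11 Etv4 regions had a midpoint within 2 kb of a transcript start of any gene, 13 lay in introns and 9 between genes, and for Etv5 these numbers were 7, 8 and 10. The shares within 2 kb of a start, 33.3% and 28%, were near those of the lists, 36.5% and 33.0%. The nearest start of a protein-coding gene was the member's for 26 of 33 Etv4 and 19 of 25 Etv5 regions. The regions had a median length of 700 bp (range 319 to 1394) for Etv4 and 588 bp (365 to 1303) for Etv5, with list medians of 589 and 532 bp. Sequence that occurs more than once in the genome made up at most 5.47% of an Etv4 region and 7.87% of an Etv5 region, measured in runs of 36 bases.

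In the 500 bp around the midpoint, 4 of 33 Etv4 regions held the ETS pattern (12.1%, 3.40 to 28.2%), compared with 10.2% of the Etv4 list, and in 2 of 25 Etv5 regions (8%, 0.984 to 26.0%), compared with 7.92%. The match at Dusp7 lay outside these 500 bp. The same letters written backwards, as a control, occurred in 2 Etv4 regions (6.06%, list 3.59%) and 1 Etv5 region (4%, list 3.81%). The loose ETS pattern was present in 28 Etv4 and 22 Etv5 regions, with list shares of 81.5% and 79.1%. For each of these the 95% interval of the members' share included the share of the list. The RUNX pattern, TGTGGTN on either strand with T or C as the last letter, was present in 8 Etv4 regions (24.2%, list 24.7%) and 7 Etv5 regions (28%, list 23.9%).

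How often a pattern is found depends on its letters, and the loose ETS pattern was present in more regions than the AP-1 pattern. The AP-1 pattern was more frequent than the ETS pattern and rarer near starts, both in the regions at these genes and in the whole lists. It was present in 15 of 33 Etv4 regions (45.5%, 28.1 to 63.6%), compared with 37.4% of the list, and in 10 of 25 Etv5 regions (40%, 21.1 to 61.3%), compared with 35.7%. In the 200 bp around the midpoint it was 11 Etv4 regions (33.3%, list 24.0%) and 3 Etv5 regions (12%, 2.55 to 31.2%, list 20.6%), so the Etv5 share rests on matches away from the middle of the region. All 15 of these Etv4 regions lay beyond 2 kb of a transcript start, where they made up 68.2% of 22 (45.1 to 86.1%), compared with 47.6% of the list. Within 2 kb of a start it was 0 of 11 (0 to 28.5%), compared with 19.6%. Of the Etv5 regions, 9 of 18 beyond 2 kb (50%, list 43.1%) and 1 of 7 near a start (14.3%, list 21.0%) held it. All of these intervals include the share of the list.

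None of the 8 member promoters in the table held the ETS, the AP-1 or the RUNX pattern, which 7.07, 5.20 and 9.27% of all promoters did. The promoter of Dusp6 held 4 loose ETS hexamers, and the other 7 held 0 or 1. GC content was higher near starts, with a median of 63.0% in the 11 Etv4 regions there, 50.7% in introns and 49.7% between genes, and its part in the place of the AP-1 pattern was not tested.

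**Figure D4:**
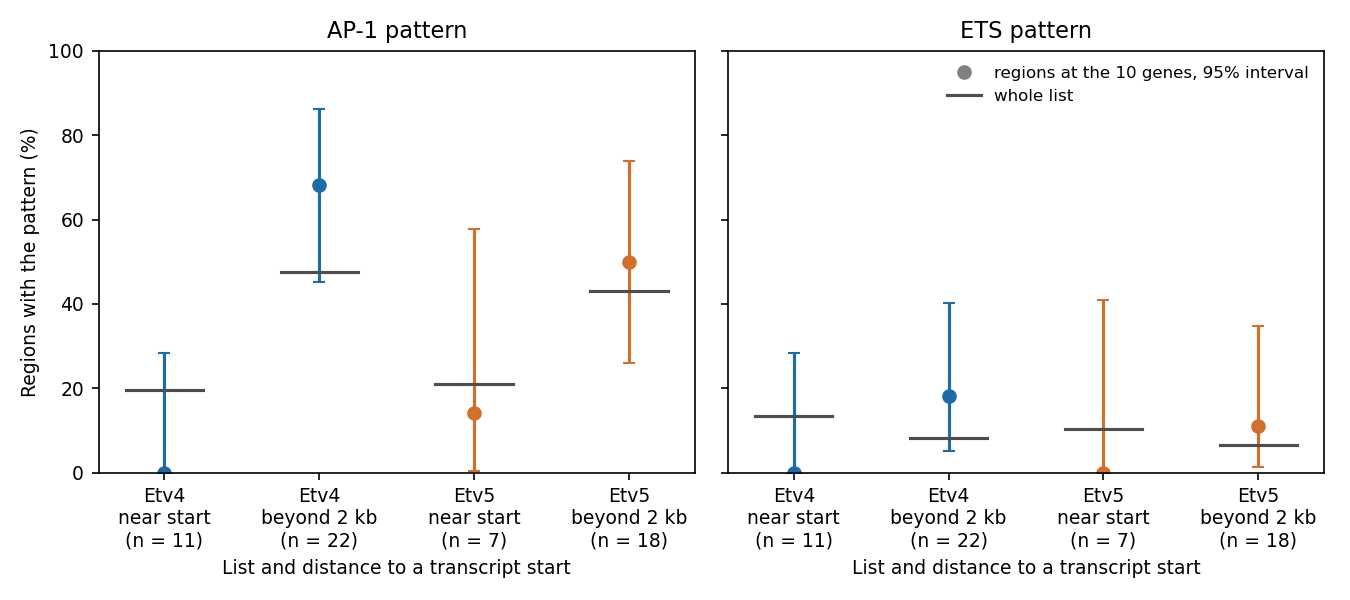
Share of regions with the AP-1 pattern (left) or the ETS pattern (right) in the 500 bp around the midpoint (y axis, %), for Etv4 and Etv5 regions at the member genes near (within 2 kb) or beyond a transcript start (x axis, with the number of regions); points with bars are the shares with their exact 95% intervals and dark lines the share of the whole list in the same place. The Etv4 regions beyond 2 kb reach 68.2% for AP-1 and those near a start 0%, and every interval includes the line of the list.

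The kinases that these phosphatases act on, and the atypical dual-specificity phosphatases, which lack the MAP kinase binding domain, were counted by the same rule. Of 9 MAP kinase genes, 7 had an Etv4 region and 6 an Etv5 region, with 12 and 9 distinct regions, and 3 genes had an Etv4 region that overlapped an Etv5 region, compared with 53.4, 42.7 and 29.5% of all protein-coding genes. Of 14 atypical genes, 8 had an Etv4 and 6 an Etv5 region, with 21 and 16 regions, and 5 had an overlapping one, which are shares of the same order as those of all genes. The median count of Etv4 regions was 4 at the MAP kinase phosphatases, 2 at the MAP kinases and 1 at the atypical phosphatases, compared with 1 over all genes. The median count of Etv5 regions was 3, 1 and 0, compared with 0, and with the RefSeq genes that of the MAP kinase phosphatases was 1.5. Among the atypical phosphatases Dusp18 alone had 8 Etv4 and 6 Etv5 regions. The median gene lengths were 13.0, 39.7 and 13.7 kb, and the median over all protein-coding genes was 17425 bp.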

How the data were processed

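Etv4 and Etv5 ChIP-seq was performed in EpRas cells, with 1 library per antibody. Per the labels and the study's methods, libraries were amplified with 15 PCR cycles and sequenced on an Ion Proton, reads were mapped to mm10 and regions were called with CisGenome by one-sample analysis; the deposited file names give 36 bp reads, a window of 300 bp and a p threshold of 0.1. The labels list Bowtie, and the methods name bowtie2 for the accessibility libraries to which they refer for ChIP-seq. A list of regions called without input can include open or readily fragmented chromatin.

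The authors deposited 1 BED file of 6 columns per library. The deposited score was 1000 for every region, and the region number, start and end were the values used. There are no counts of reads, so the depth is unknown and no height can be compared. Genes and their starts were taken from GENCODE vM21, and sequences and promoters from RefSeq GRCm38.p6. RefSeq gene starts were used for the distances at Dusp1, Dusp10 and Dusp16. All samples were grouped by the antibody in the labels.

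Regions were assigned to each gene and its 50 kb flanks, near a start meant a midpoint within 2 kb, overlap meant at least 1 bp, and patterns were searched in 500 bp around the midpoint. All 10 members are described, and values of single MAP kinase genes are not reported here. The members and gene lists were chosen with earlier results of these data known. Shares have exact Clopper-Pearson 95% intervals (SciPy 1.17.1), which cover counting error only. With no replicates there were no tests. The functions for assignment, overlap and pattern search were tested on simulated data. Python 3.11.15, NumPy 2.4.6, pandas 2.3.3, Numba 0.67.0 and Matplotlib 3.10.9 were used.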

Additional observations from a re-analysis of the deposited data

How the results depend on the processing

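Of 52 values from other settings chosen at the start, 41 stayed within 1.5 times the reported count or inside the reported interval, as did all 8 of those added after seeing the data, which used RefSeq gene extents or starts. With RefSeq extents the overlap shares of 60.6% (Etv4) and 84.0% (Etv5) became 56.7% and 81.8%, and their intervals no longer lay above the shares of the whole lists. The rest moved mostly by construction, since fewer regions or bases were counted. The 33 Etv4 and 25 Etv5 regions became 17 and 8 with the gene alone, 20 and 16 with the first 50% by number, and 21 and 15 with the longer 50% of each list. Genes with an Etv4 region near the start fell from 4 to 2 with the first 50% by number. The share with an ETS pattern was 84.8% (Etv4) and 88% (Etv5) with the loose pattern, and for Etv5 it was 0% in 200 bp, where the AP-1 share was 12%. At 100 kb, all 10 members had a region in each list (exact 95% interval 69.2 to 100%). Among protein-coding genes the shares were 65.5% (Etv4) and 56.3% (Etv5), which lie below this interval. The absence at Dusp2, Dusp9 and Dusp16 and the comparison with all genes thus depend on the distance. No paired analysis was possible because there was a single library for each antibody. The absence of a region is not the absence of binding, since the depth is unknown and there is no untreated or control library here.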
